A study of Homo sapiens with 70 samples.

Results

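Huh7 cells that received sorafenib and GW3965 together were compared with Huh7 cells whose libraries are labelled as sorafenib alone. Huh7 is an established human hepatoma line. Each group held 9 libraries, so the comparison used 18 of the 70 libraries of the study, and 11458 of 20090 measured genes were expressed well enough to be compared. Cells of the combination group were given 5 µM GW3965 and 2 µM sorafenib for 24 h, and those labelled sorafenib were given 2 µM sorafenib for the same time. The other Huh7 libraries were 8 of the DMSO vehicle and 8 labelled GW3965 at 5 µM. The same 4 treatments were given to Hep3B, a second hepatoma line, with 9 libraries in each group. Poly-A RNA was sequenced. The labels leave unsaid whether a group's libraries stem from separate cultures. The p-values therefore measure the spread between libraries, which may be technical.

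GW3965 is an agonist of the liver X receptors (LXR), which bind oxidised cholesterol in the nucleus and switch on genes of cholesterol export and fatty acid synthesis. Sorafenib inhibits RAF kinases and several receptor tyrosine kinases. It can lower the signal to ERK, whose activity is read from short-lived feedback genes such as DUSP6 and the Sprouty genes. Cells that are short of amino acids, have unfolded protein in the endoplasmic reticulum (ER) or have impaired mitochondria slow translation through eIF2 and produce the transcription factor ATF4. ATF4 switches on DDIT3 (CHOP), ATF3, TRIB3 and genes that take up and make amino acids.

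Levels are given as the group means in CPM (read counts scaled to library size) that the authors' tables imply, and differences are on the log2 scale, both drugs minus labelled sorafenib, with a standard error (SE) derived from the authors' p-values. The tables used here carry no per-library values, so these errors are the view they give of the spread within a group. A gene counted as expressed when its mean log2 CPM over both tables was at least 1. A gene was called higher or lower when the adjusted p of the approximate test was under 0.05.

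The Huh7 single-drug labels were first set against the genes that each drug is known to move. In the authors' deposited table for the libraries labelled sorafenib, 10 of 16 expressed LXR target genes were above DMSO at an FDR under 0.05 and 0 were below, and ABCG1, the cholesterol exporter, had a log2 fold change of 3.82. In the same authors' deposited table, 0 of 14 ERK output genes were below DMSO, 1 was above, and DUSP6 stood at -0.02, where 3.31% of all expressed genes passed that FDR. The authors' deposited table for the libraries labelled GW3965 had 9 of 14 ERK output genes below DMSO, with DUSP6 at -1.70, and 7 of 16 LXR targets above it, with ABCG1 at 0.75, where 31.4% of all expressed genes passed. The group labelled sorafenib thus went against its label on both lists. The group labelled GW3965 had part of the LXR targets above DMSO. The LXR targets ABCA1 (0.28, FDR 0.064) and SREBF1 (-0.07, FDR 0.952) did not pass there. In the libraries labelled sorafenib they stood at 1.30 and 1.63. On ERK output genes the group labelled GW3965 went against its label. Whether the labels were exchanged was not tested. The labels are kept as deposited, and every direction below is relative to the libraries labelled sorafenib.

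Of the 11458 expressed genes, 3335 (29.1%) were called higher with both drugs than in the libraries labelled sorafenib, 2067 (18%) were called lower, and 6056 were not called. These shares are the background for the higher and lower calls of every Huh7 gene list below. A list whose shares lie near them shows nothing of its own. The median difference over all expressed genes was 0.09. The share of calls that were higher was 61.7% as deposited, 50.4% when differences were centred on their median and 50.7% when centred within bins of transcript GC content, so the excess of higher calls depended on the scaling. Differences of at least 2-fold were seen for 596 genes called higher and 304 called lower, and of at least 4-fold for 80 and 31. The plot of difference against level shows both directions at every level. The share called was 42.4% in the lowest of 4 equal expression classes and 51.1% in the highest, and the median SE was 0.21 and 0.11. Genes called higher had a median GC content of 47.7% and a median transcript length of 3443 bases. Genes called lower had 51.1% and 2849 bases, and genes not called had 48.9% and 2989 bases. The part of GC content and length in the result was not tested beyond the centring by GC bin.

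**Figure D1:**
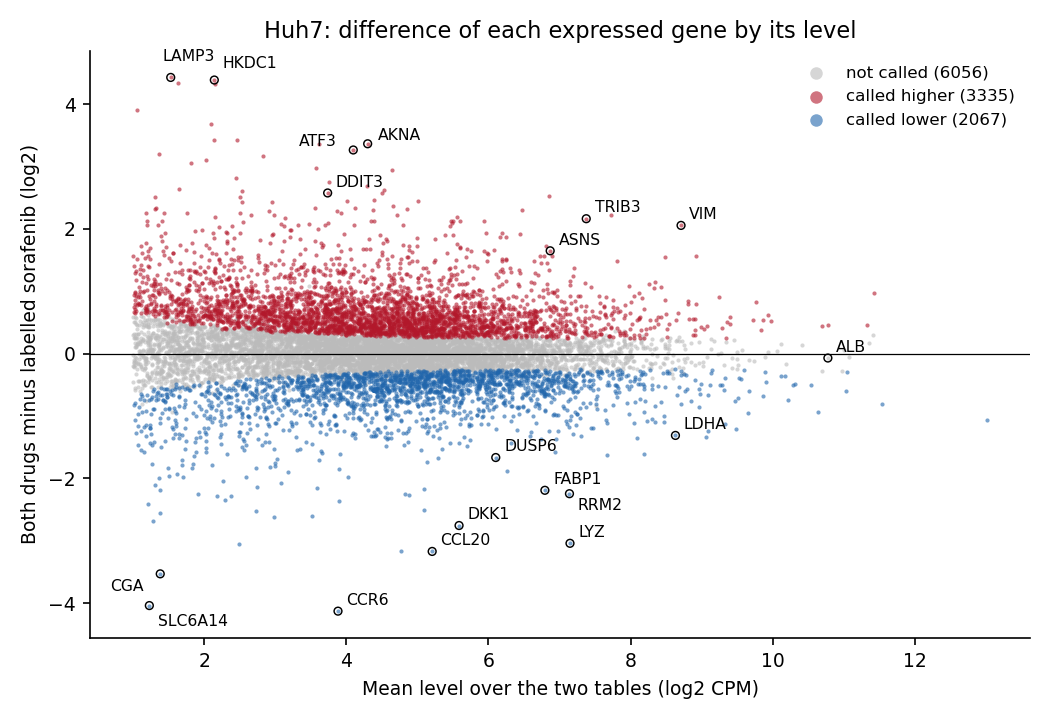
Each point is 1 of 11458 expressed genes in Huh7, with its mean level (log2 CPM) on the horizontal axis and both drugs minus labelled sorafenib (log2) on the vertical axis. Red points are the 3335 genes called higher, blue points the 2067 called lower and grey points the 6056 not called. LAMP3 and HKDC1 stand highest at 4.43 and 4.39, CCR6 lowest at -4.13, and ALB, towards the right, lies near 0.

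The genes that stood furthest above the libraries labelled sorafenib were mostly silent or low in the other 3 Huh7 groups. LAMP3, a lysosomal membrane glycoprotein, was at 0.774 CPM in DMSO, 2.30 CPM in the libraries labelled GW3965, 0.861 CPM in those labelled sorafenib and 18.5 CPM with both drugs, a difference of 4.43 (SE 0.45, adjusted p = 1.43e-20). HKDC1, a member of the hexokinase family, went through 0.993, 2.14, 1.41 and 29.5 CPM in the same order (difference 4.39, SE 0.43). In both genes the 3 other groups lay within a few CPM of each other and the both-drug group was far higher. In the authors' deposited table both were above DMSO in the libraries labelled GW3965 (LAMP3 1.57, FDR 0.0105, and HKDC1 1.10, FDR 0.0184). DNAH17, an axonemal dynein heavy chain, was 20.2-fold higher at 19.1 CPM, and PGS1, a gene it overlaps, differed by -0.05. The transcription factor ETS1 was 14.9-fold higher, the deacetylase HDAC9 12.8-fold, the vasoconstrictor peptide EDN1 10.8-fold and the muscle actin ACTA1 10.7-fold. AKNA was at 6.68 CPM in DMSO, 23.9 CPM in labelled GW3965, 8.65 CPM in labelled sorafenib and 89.2 CPM with both drugs (difference 3.37, SE 0.17). It is read together with ORM2, which overlaps it and differed by -0.63. CD44, the hyaluronan receptor, was at 5.57, 5.92 and 4.86 CPM in DMSO, labelled GW3965 and labelled sorafenib, and at 50.02 CPM with both drugs. The Krüppel-like factor KLF4 rose from 1.14 to 10.5 CPM. LAMP3, HKDC1, DNAH17, ETS1, HDAC9 and KLF4 were below 2 CPM, the expression minimum, in DMSO and in the libraries labelled sorafenib. They counted as expressed only through the both-drug group. Their folds rest on levels near the floor, and the low levels elsewhere follow in part from ranking by difference after that filter.

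At the other end stood a chemokine and its receptor. CCL20 was at 52.1 CPM in DMSO, 11.6 CPM in the libraries labelled GW3965, 48.2 CPM in those labelled sorafenib and 5.36 CPM with both drugs (difference -3.17, SE 0.19, adjusted p = 4.39e-57). CCR6, the receptor of CCL20, was at 21.4, 4.47, 19.6 and 1.12 CPM in the same groups (difference -4.13, SE 0.27). Both genes were low in the libraries labelled GW3965 as well, and lower again with both drugs. The amino acid transporter SLC6A14 was 16.4-fold lower, the hormone subunit CGA 11.5-fold and the calcium pump ATP2B2 8.97-fold. LYZ, which encodes lysozyme, was 8.22-fold lower, from 197 to 23.9 CPM. The Wnt inhibitor DKK1 fell from 49.6 to 7.35 CPM, and ARG1, the arginase of the urea cycle, from 6.62 to 0.794 CPM (difference -3.06, SE 0.46). MED23, which overlaps ARG1, differed by 0.27. The remaining genes among the 12 lowest were GP2 (6.44-fold lower), GBA3 (6.12-fold), the Notch glycosyltransferase LFNG (6.08-fold) and the acetyltransferase NAT8 (5.88-fold).

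The stress response regulators rose almost together. Of 12 expressed members of 13 listed, 11 were called higher and 1 lower, with a median difference of 1.66 against 0.09 over all expressed genes. ATF3, a transcription factor of acute stress, was at 5.14 CPM in DMSO, 11.8 CPM in the libraries labelled GW3965, 8.11 CPM in those labelled sorafenib and 78.1 CPM with both drugs (difference 3.27, SE 0.31, adjusted p = 1.50e-24). DDIT3, the CHOP factor of the unfolded protein response, went through 6.04, 15.4, 7.43 and 44.3 CPM (difference 2.58, SE 0.18). Its locus overlaps MARS1, which differed by 0.64. TRIB3, a pseudokinase that ATF4 and CHOP induce, was at 47.5, 114, 123 and 553 CPM (difference 2.16, SE 0.14), and PPP1R15A, which reverses eIF2 phosphorylation, rose from 38.3 to 167 CPM. CHAC1, which degrades glutathione, was at 2.55, 10.7, 11.3 and 28.1 CPM (difference 1.31, SE 0.21). Each of these 5 genes was highest with both drugs. TRIB3 and CHAC1 stood at similar levels in both single-drug groups, and DDIT3 and ATF3 were nearer to DMSO in the libraries labelled sorafenib than in those labelled GW3965. ATF4 itself rose from 216 to 349 CPM (difference 0.69). The exception was ATF5, which fell from 33.0 to 17.5 CPM (difference -0.92).

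Promoter sequences are shown for the stress regulator CHAC1 and for ASNS, AARS1, CRELD2 and MKI67 from gene groups described below, as examples of short motifs counted in these groups. They were taken from RefSeq (GRCh38.p14) as the 250 bases before the start, 5′ to 3′ on the strand of the gene. Capitals mark TGATGNAA, the letters searched for the ATF4-type stress element (or their reverse complement), in ASNS, CHAC1 and AARS1, the ER stress element in CRELD2, and TTTGAA, the letters of the cell cycle homology region, in MKI67.
ASNS, chr7:97872409-97872658, minus strand: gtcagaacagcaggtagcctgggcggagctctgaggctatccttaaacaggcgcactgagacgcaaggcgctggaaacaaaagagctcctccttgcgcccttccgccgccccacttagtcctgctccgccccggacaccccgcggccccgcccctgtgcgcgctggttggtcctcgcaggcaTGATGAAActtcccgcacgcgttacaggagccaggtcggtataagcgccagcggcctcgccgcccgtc
CHAC1, chr15:40953221-40953470, plus strand: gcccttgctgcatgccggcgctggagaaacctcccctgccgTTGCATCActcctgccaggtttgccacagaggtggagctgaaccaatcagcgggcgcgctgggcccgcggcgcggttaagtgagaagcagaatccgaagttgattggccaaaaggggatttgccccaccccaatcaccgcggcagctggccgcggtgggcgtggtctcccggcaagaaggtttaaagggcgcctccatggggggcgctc
AARS1, chr16:70289507-70289756, minus strand: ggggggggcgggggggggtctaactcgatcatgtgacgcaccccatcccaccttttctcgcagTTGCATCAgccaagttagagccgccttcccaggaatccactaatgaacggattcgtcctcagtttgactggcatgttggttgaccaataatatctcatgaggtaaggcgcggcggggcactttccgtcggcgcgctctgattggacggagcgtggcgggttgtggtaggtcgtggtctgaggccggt
CRELD2, chr22:49918384-49918633, plus strand: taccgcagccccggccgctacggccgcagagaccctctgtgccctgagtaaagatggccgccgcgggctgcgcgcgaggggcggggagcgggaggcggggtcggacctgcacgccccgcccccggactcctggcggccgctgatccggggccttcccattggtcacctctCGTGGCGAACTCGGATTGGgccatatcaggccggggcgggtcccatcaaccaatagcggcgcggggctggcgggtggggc
MKI67, chr10:128126424-128126673, minus strand: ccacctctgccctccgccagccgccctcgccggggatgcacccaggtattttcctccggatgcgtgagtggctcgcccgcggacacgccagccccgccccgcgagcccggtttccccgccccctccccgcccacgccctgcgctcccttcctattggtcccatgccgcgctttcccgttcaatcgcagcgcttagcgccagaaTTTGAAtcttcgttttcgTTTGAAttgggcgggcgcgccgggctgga
The match began 68 bases before the start of ASNS, 209 before that of CHAC1 and 187 before that of AARS1 and 80 before that of CRELD2, and MKI67 held 2 matches, 47 and 29 bases before its start.

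Motifs were counted on both strands in windows of 250 bases before to 50 after each RefSeq start. A window was found for 9385 of the expressed genes, and a gene counted when any of its windows held the letters. TGATGNAA was in 3.62% of all 35116 windows and in the windows of 2.66% of expressed genes. It was found in 7 of 14 aminoacyl-tRNA synthetase genes with a window, 5 of 9 amino acid transporter genes and 3 of 12 stress regulators. TTTGAA was in 15.2% of all windows, 13.9% of expressed genes and 12 of 18 mitosis genes. The ER stress element, made of CCAAT and CCACG 9 bases apart, was in 0.0769% of all windows, 0.16% of expressed genes and 7 of 18 ER chaperone genes. The metal response element, searched as TGCACNC or TGCGCNC, was in 29.6% of all windows, in the windows of 46.7% of expressed genes and in 4 of 5 metallothionein list genes with a window. The AP-1 letters TGANTCA were in 7.71% and the cyclic AMP element TGACGTCA in 1.85% of all windows. By direction, TGATGNAA was found for 3.63% of genes called higher, 2.93% of genes called lower and 2.04% of genes not called. A match is a description of the letters and not a site of binding.

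Genes that supply amino acids were higher as groups. Of 13 enzymes of amino acid synthesis and one-carbon metabolism, all expressed, 11 were called higher and 1 lower (median 0.62). ASNS, asparagine synthetase, was at 39.2 CPM in DMSO, 106 CPM in the libraries labelled GW3965, 102 CPM in those labelled sorafenib and 321 CPM with both drugs (difference 1.65, SE 0.18, adjusted p = 1.84e-18). CTH, which makes cysteine, was 3.12-fold higher, the mitochondrial PCK2 2.81-fold and the folate enzyme MTHFD2 2.79-fold. The single member called lower was ALDH18A1 of proline synthesis (-0.52). Of 10 expressed amino acid transporters of 11 listed, 8 were called higher and 0 lower (median 0.95). SLC7A1, the arginine carrier, rose from 52.3 to 158 CPM, SLC3A2, the heavy chain shared by several carriers, from 188 to 524 CPM, and the cystine carrier SLC7A11 from 58.3 to 109 CPM. Of 18 aminoacyl-tRNA synthetases, 13 were called higher and 1 lower (median 0.61), led by AARS (now AARS1) at 2.22-fold and SARS (now SARS1) at 2.19-fold.

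Secreted factors of the stress response rose with them. Of 6 expressed members of 9 listed, 5 were called higher. INHBE, an activin subunit of hepatocytes, was at 3.804, 21.3, 7.96 and 53.6 CPM in DMSO, labelled GW3965, labelled sorafenib and both drugs (difference 2.75, SE 0.22). GDF15, a hormone that suppresses appetite, was between 11.9 and 13.1 CPM in the 3 other groups and 51.6 CPM with both drugs. STC2 was 3.38-fold higher, ADM2 2.56-fold and the angiogenic factor VEGFA 2.33-fold. FGF19, the bile acid hormone, was called lower at -0.75.

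**Figure D2:**
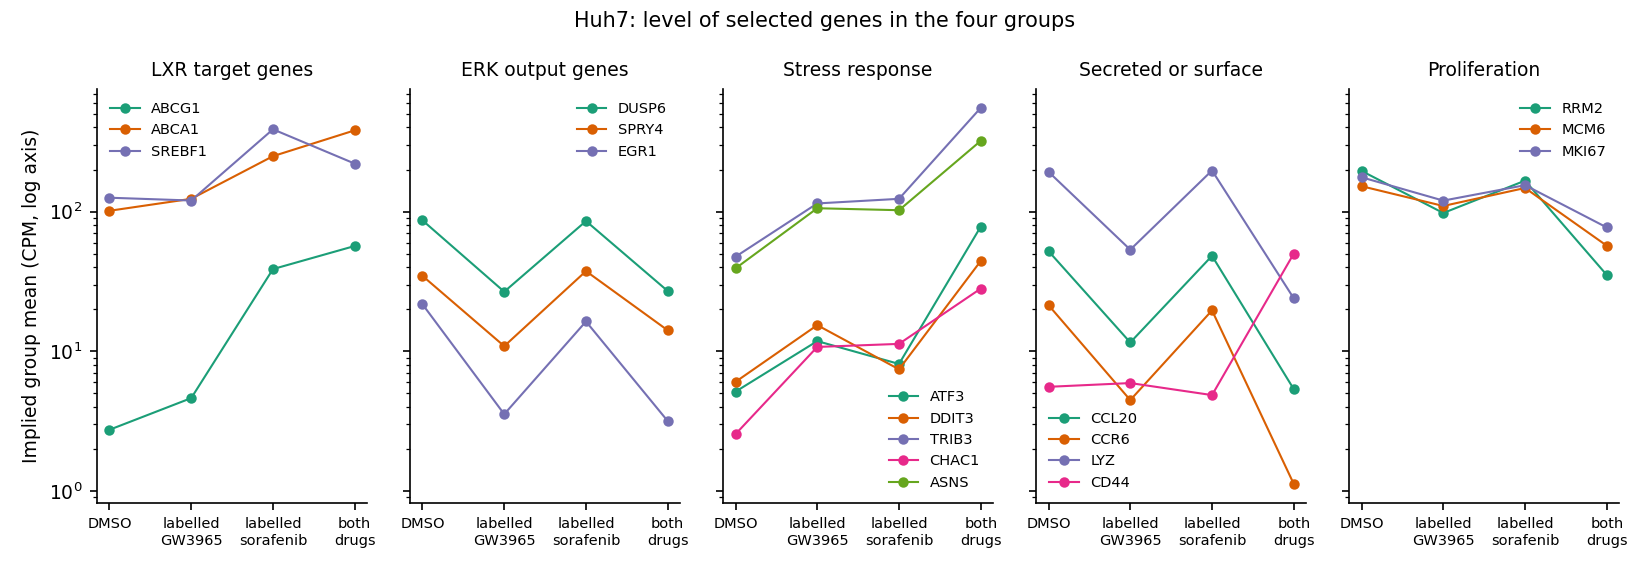
Implied group means in CPM on a logarithmic axis for selected genes in the 4 Huh7 groups, DMSO, labelled GW3965, labelled sorafenib and both drugs, joined by lines for each gene. ATF3, DDIT3, TRIB3 and ASNS are highest with both drugs, DUSP6, SPRY4 and EGR1 are at like low levels in the libraries labelled GW3965 and with both drugs, and ABCG1 is raised in the libraries labelled sorafenib and with both drugs. No error is drawn, because values of single libraries were not analysed.

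ER chaperones were called in both directions, as all expressed genes were (29.1% higher and 18% lower). Of 19 genes of the ER chaperone and unfolded protein response list, 6 were called higher, a share near that over all expressed genes, and 7 lower (median -0.18). SDF2L1 fell from 20.4 to 8.01 CPM and CRELD2 from 24.5 to 9.80 CPM, both ER luminal proteins, and PDIA4 (-0.77), CALR (-0.67) and HSP90B1 (-0.49) were called lower as well. HSPA5 (BiP), the main ER chaperone, was at 745 and 656 CPM and was not called. ERN1, the sensor kinase IRE1, rose 2.85-fold and HERPUD1, of ER-associated degradation, 1.92-fold. All 13 expressed cytosolic heat shock genes of 14 listed were called lower, with a median of -0.49. HSPE1 fell from 67.4 to 33.5 CPM (difference -1.01, SE 0.13) and DNAJB1 from 168 to 117 CPM. HSPA1A (from 30.4 to 14.8 CPM) and HSPA1B (from 31.0 to 15.5 CPM) are near-identical copies and cannot be told apart.

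ERK output genes were called in both directions, beside 29.1% higher and 18% lower over all expressed genes. Of 14 expressed members of 15, 7 were called lower and 3 higher (median -0.49). DUSP6, the ERK phosphatase, was at 86.5 CPM in DMSO, 26.7 CPM in the libraries labelled GW3965, 85.5 CPM in those labelled sorafenib and 27.0 CPM with both drugs (difference -1.66, SE 0.21, adjusted p = 5.55e-14). SPRY4, a Sprouty inhibitor of the pathway, was at 34.6, 10.9, 37.5 and 14.1 CPM (difference -1.41, SE 0.23), and EGR1 at 21.7, 3.55, 16.3 and 3.16 CPM (difference -2.37, SE 0.38). For these 3 genes the levels in DMSO and in the libraries labelled sorafenib were high, and those in the libraries labelled GW3965 and with both drugs were low. SPRY2, DUSP5, ETV4 and ETV5 were called lower by -0.61 to -1.15. MYC rose from 62.7 to 163 CPM (difference 1.37, SE 0.14), and DUSP4 (0.89) and PHLDA1 (0.82) were called higher. CCND1, cyclin D1, stood at -0.03.

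Immediate early genes, which growth signals and stress both switch on within minutes, were higher where they changed within their list. EGR1, a gene of the same class, was counted with the ERK output genes instead and was called lower (-2.37). Of 10 expressed of 14 listed, 7 were called higher and 0 lower (median 0.92), among them KLF6 (4.12-fold), JUNB (2.87-fold) and JUN (2.44-fold). FOS, FOSB, EGR2 and EGR3 were below the expression minimum. Of 15 expressed receptor tyrosine kinases and RAF kinases, 5 were called higher and 5 lower, a share of higher calls near the 29.1% over all expressed genes. Centring by GC bin gave 5 higher and 3 lower. EGFR rose from 92.8 to 188 CPM and the insulin receptor INSR from 48.7 to 98.5 CPM, while PDGFRA fell from 11.6 to 3.33 CPM and PDGFRB from 10.1 to 4.34 CPM. BRAF (0.25) was not called.

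LXR targets, already raised in the libraries labelled sorafenib, had shares of calls near those over all expressed genes (29.1% higher and 18% lower). Of 16 expressed of 19 listed, 5 were called higher, 2 lower and 9 not called (median 0.21). ABCG1 was at 2.74 CPM in DMSO, 4.62 CPM in the libraries labelled GW3965, 38.8 CPM in those labelled sorafenib and 56.7 CPM with both drugs (difference 0.55, SE 0.14, adjusted p = 0.000515). ABCA1, the other cholesterol exporter, was at 101, 123, 249 and 382 CPM (difference 0.61, SE 0.13). SREBF1, the LXR-driven master regulator of fatty acid synthesis, went the other way, at 126, 120, 388 and 220 CPM (difference -0.82, SE 0.12, adjusted p = 1.72e-10), and RAI1, which overlaps it, differed by 0.24. The retinoic acid receptor RARA was 1.86-fold higher with both drugs, at 14.6 CPM in DMSO and 14.1 CPM in the libraries labelled sorafenib. FASN stood at 2844 and 2963 CPM and SCD at 3156 and 3559 CPM in labelled sorafenib and both drugs, and neither was called.

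Lipid synthesis as a whole showed no common direction. Over all expressed genes 29.1% were called higher and 18% lower. Of 17 expressed fatty acid synthesis enzymes of 18, 5 were called higher and 5 lower (median 0.06). LPIN1 (0.95) and ACSS2 (0.78), which makes acetyl-CoA from acetate, were higher, and the elongase ELOVL6 (-0.77) and the desaturase FADS1 (-0.76) were lower. Of 24 cholesterol genes, 6 were called higher, 2 lower and 16 not called (median 0.06), and with centring on the median the counts were 4 and 4. SQLE (0.68), SC5DL, now SC5D (0.56), and DHCR7 (0.42) were higher, and EBP (-0.49) was lower.

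DNA replication genes were lower almost without exception. Of 24 genes, 22 were called lower and 1 higher (median -0.999). RRM2, the ribonucleotide reductase subunit that supplies deoxynucleotides, was at 195 CPM in DMSO, 97.7 CPM in the libraries labelled GW3965, 166 CPM in those labelled sorafenib and 35.1 CPM with both drugs (difference -2.24, SE 0.11, adjusted p = 4.80e-88). UHRF1, which carries DNA methylation through replication, fell from 45.4 to 10.1 CPM, MCM10 from 43.3 to 13.04 CPM and the helicase subunit MCM6 from 148 to 57.0 CPM. RFC4 was the member called higher (0.37). Of 21 mitosis genes, 14 were called lower and 0 higher (median -0.30), and 19 lower when centred on the median. MKI67, the Ki-67 proliferation marker, was at 176, 120, 155 and 77.0 CPM (difference -1.01, SE 0.15), CENPE, a kinesin of the kinetochore, fell from 40.8 to 17.5 CPM and ASPM from 103 to 51.6 CPM. CDK1 (-0.19) and CCNB2 (-0.01) were not called. RRM2 and MCM6 were between DMSO and both drugs in the libraries labelled GW3965, as MKI67 was.

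Growth-arrest genes and several BCL2 family genes were higher. Of 14 expressed cell cycle inhibitors and p53 targets, 8 were called higher and 1 lower (median 0.57). GADD45A rose from 8.74 to 41.6 CPM, GADD45B from 11.6 to 50.5 CPM and the CDK4 and CDK6 inhibitor CDKN2B from 16.1 to 57.6 CPM. CDKN1A (p21) was at 2.19 and 3.59 CPM and was not called, the p53 targets MDM2 (0.16) and FDXR (-0.21) were not called either, and CDKN2C fell (-1.45). Huh7 is known to carry a mutant p53. Of 11 expressed BCL2 family genes, 7 were called higher and 0 lower (median 0.39). The BH3-only genes BBC3 (PUMA), BMF and BCL2L11 (BIM), which promote death, were 4.25-fold, 2.93-fold and 1.55-fold higher. The protective MCL1 was also higher, by 0.35.

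Wnt and YAP targets were mostly higher. Of 14 expressed, 8 were called higher and 1 lower (median 0.55), and with centring on the median 3 were called lower. The YAP targets ANKRD1 and CYR61 (now CCN1) rose 4.57-fold and 3.82-fold, while DKK1 was the member called lower. CTGF (now CCN2), another YAP target, stood at -0.24 and was not called. Of 13 expressed matrix, integrin and keratin genes, 6 were called higher and 1 lower. Vimentin (VIM), the intermediate filament of mesenchymal cells, was at 219, 376, 274 and 1140.4 CPM in DMSO, labelled GW3965, labelled sorafenib and both drugs (difference 2.06, SE 0.33). The integrin ITGAV (0.93) and keratin KRT19 (0.81) were higher, and the collagen receptor ITGA2 (-1.06) was lower.

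Lysosome and autophagy genes were higher in most cases. Of 19 expressed members of 20, 15 were called higher and 1 lower (median 0.65). SQSTM1, the p62 cargo receptor, rose from 260 to 763 CPM (difference 1.55, SE 0.16), FLCN 2.88-fold, RRAGD 2.74-fold and the autophagosome protein MAP1LC3B from 55.6 to 138 CPM. FLCN and RRAGD belong to the switch that controls mTORC1 and the lysosomal factor TFEB. Of 18 NRF2 targets, 10 were called higher and 2 lower (median 0.40). OSGIN1 was 3.94-fold and SRXN1, sulfiredoxin, 2.52-fold higher, while NQO1, the classical NRF2 target, fell by 0.90 on the log2 scale, from 87.2 to 46.9 CPM. Of 11 expressed ferroptosis and iron genes, 5 were called higher and 2 lower, beside 29.1% and 18% of all expressed genes. GPX4, the lipid peroxide reductase that protects from ferroptosis, rose from 164 to 280 CPM, and ACSL4, which loads membranes with the lipids that peroxidise, fell from 364 to 173 CPM. With centring by GC bin that list had 3 genes higher and 4 lower. Of 10 metallothionein list genes, 5 were called higher and 1 lower. MT1H (2.43-fold), MT1G (1.86-fold) and MT1F (1.47-fold) were higher and MT1A was lower (-0.73), though the MT1 genes are near-identical copies and these values are uncertain. MT2A was at 163 and 167 CPM.

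Enzymes of glycolysis were lower. Of 19 expressed members of the glycolysis, glucose transport and hexokinase list, 12 were called lower and 2 higher (median -0.48). LDHA, which makes lactate, was at 502, 266, 448 and 181 CPM in DMSO, labelled GW3965, labelled sorafenib and both drugs (difference -1.31, SE 0.14, adjusted p = 9.60e-19), and PKM2 (now PKM) fell from 762 to 348 CPM. The glucose transporter SLC2A2 fell from 2.85 to 0.832 CPM. HKDC1 and the enolase ENO2 (3.63-fold) were the members called higher. Of 20 nuclear genes of oxidative phosphorylation, 9 were called lower and 0 higher (median -0.16), led by NDUFB3 (-0.81) and NDUFA4 (-0.59). Of 12 expressed fatty acid oxidation genes, 6 were called lower and 3 higher, or 8 and 1 with centring by GC bin. The fatty acid binding protein FABP1 was at 104, 98.3, 221 and 48.4 CPM (difference -2.19, SE 0.29), so that it stood above DMSO in the libraries labelled sorafenib and below it with both drugs. CPT1A, the gate of fatty acids into mitochondria, was 2.29-fold higher. Of 9 expressed urea cycle and amino acid breakdown genes, 7 were called lower and 1 higher, ASS1, which makes argininosuccinate, from 21.3 to 62.8 CPM. Of 11 expressed hypoxia genes, 4 were called higher and 1 lower, where 29.1% and 18% of all expressed genes were. Of 3 expressed gluconeogenic genes, PCK2 and the coactivator PPARGC1A (1.03) were higher and PC (-0.32) was lower. With centring by GC bin 1 gluconeogenic gene was called higher.

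**Figure D3:**
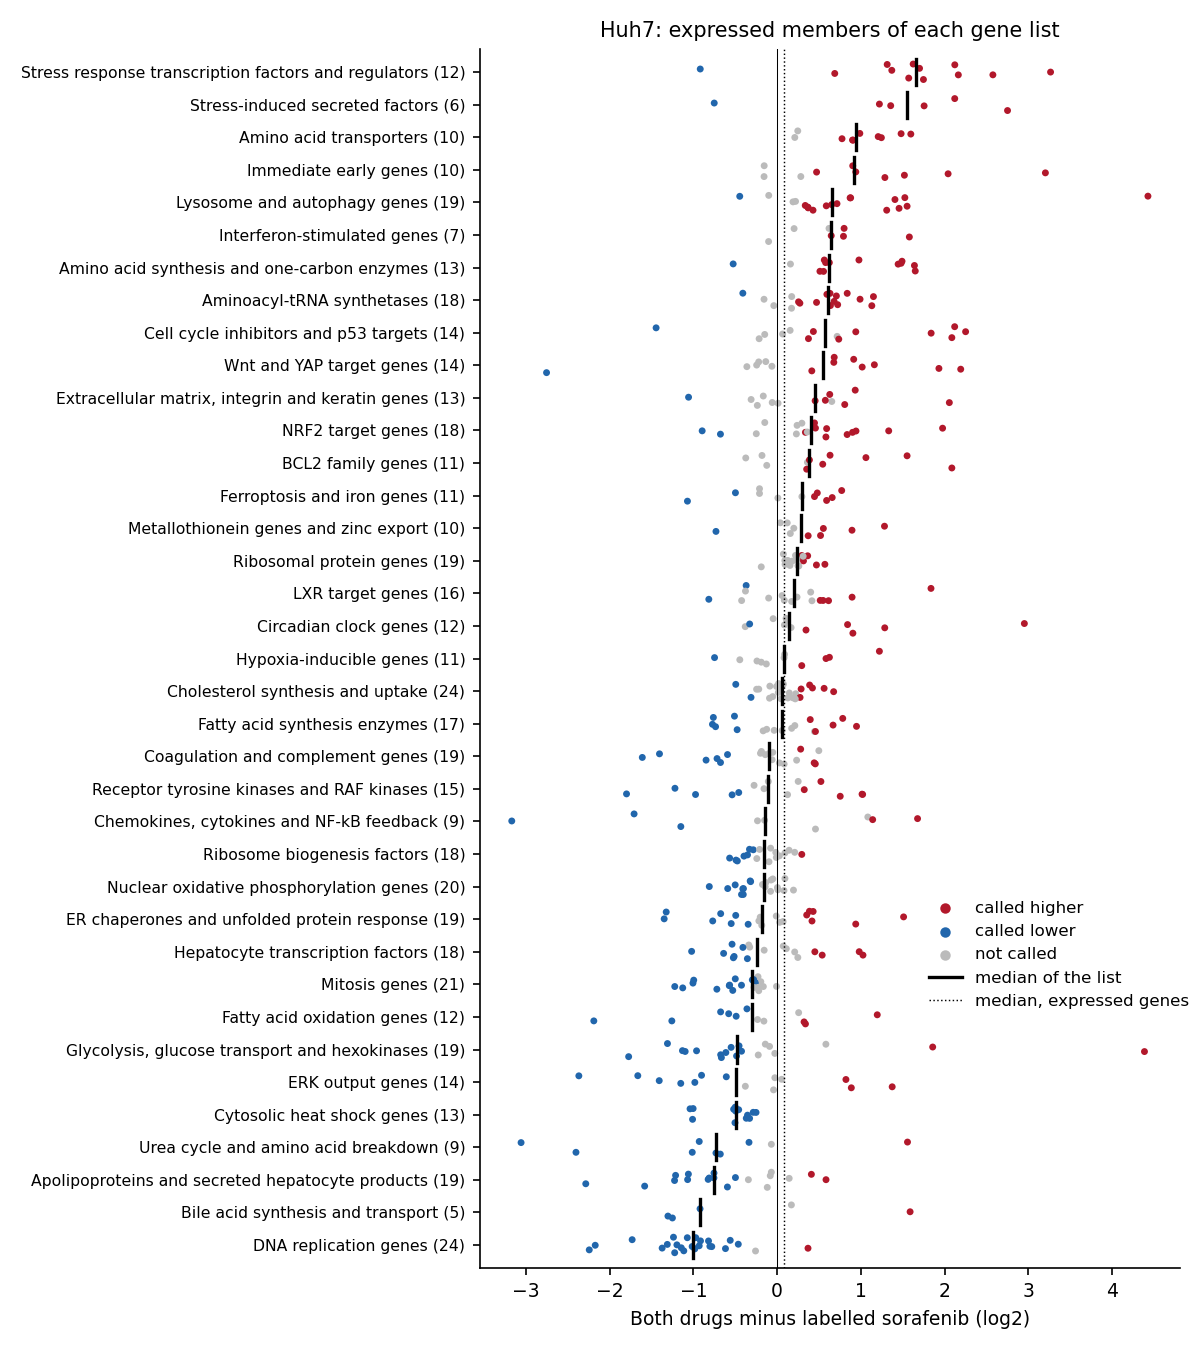
Each row is a gene list of at least 5 expressed members, with its number of expressed members, sorted by median, and each point is a member's difference, both drugs minus labelled sorafenib (log2), coloured red where called higher, blue where called lower and grey where not called. Black bars are list medians and the dotted line is the median of all expressed genes, 0.09. Stress regulators have the highest median, 1.66, and DNA replication genes the lowest, -0.999.

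Secreted products of hepatocytes were lower in part. Of 19 expressed apolipoproteins and secreted products of 20, 12 were called lower and 2 higher (median -0.75). ALB, albumin, was at 1832, 2332, 1726 and 1646 CPM in DMSO, labelled GW3965, labelled sorafenib and both drugs and was not called (difference -0.07, SE 0.13, adjusted p = 0.676). TTR, the thyroxine carrier, fell from 152 to 50.7 CPM, APOA2 from 943 to 407 CPM, AFP, the fetal albumin of hepatoma cells, from 9408 to 4484 CPM and haptoglobin (HP) from 5.17 to 1.06 CPM. VTN (0.58) and HPX (0.41) were higher. Of 19 expressed coagulation and complement genes, 6 were called lower and 3 higher, with KNG1 (-1.61), C8A (-1.41), SERPIND1 (-0.85) and FGA (-0.72) lowest. Over all expressed genes 18% were called lower and 29.1% higher. Of 18 expressed hepatocyte transcription factors, 7 were called lower and 4 higher, or 8 and 2 with centring by GC bin. The bile acid receptor NR1H4 (FXR) fell from 6.32 to 3.11 CPM and CEBPA from 259 to 180 CPM, while HNF4A (0.11) and FOXA2 (0.21) were not called. Of 5 expressed bile acid genes, the exporter subunits OSTalpha (now SLC51A, -1.30) and OSTBETA (now SLC51B, -1.25) and the phospholipid flippase ABCB4 (-0.92) were lower and ABCC3 (1.59) was higher. Of 15 drug metabolism genes 3 were expressed, and CYP1A1, the target of the aryl hydrocarbon receptor, fell from 7.25 to 1.495 CPM, while UGT2B4 (-0.15) and SULT2A1 (0.22) were not called.

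All 12 hepatocyte markers were expressed, as the line's label would have it, and 7 of them were called lower and 0 higher. None of 6 endothelial markers reached the expression minimum. Of 7 leukocyte markers LYZ and CD68 were expressed while PTPRC, CD3E and CD79A were below the minimum, and of 7 fibroblast and stellate markers COL1A1, COL1A2 and PDGFRB were expressed while DCN and LUM were not.

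Chemokine and NF-kB genes were called in both directions, as were all expressed genes (29.1% higher and 18% lower). Of 9 expressed of 17 listed, 2 were called higher, RELB (3.20-fold) and the feedback inhibitor TNFAIP3 (1.14), and 3 lower, CCL20, NFKBIZ (-1.15) and CXCL1. CXCL1 was low throughout, at 3.06 and 0.936 CPM (difference -1.71, SE 0.60, adjusted p = 0.0117). IL8 (now CXCL8) was at 7.39 and 15.7 CPM and was not called. Of 16 interferon-stimulated genes 7 were expressed, of which 4 were called higher and 0 lower, IRF1 (2.99-fold), ISG15 (1.74-fold), DDX58 (1.73-fold) and IRF9 (1.57-fold). IRF9 was no longer called when differences were centred on the median (adjusted p = 0.0723), centred by GC bin (0.0581) or with no expression minimum (0.0566). Of 12 expressed clock genes, 5 were called higher and 1 lower, or 4 and 2 with centring on the median. BHLHE40, a repressor in the clock that hypoxia and stress also induce, was at 8.77, 15.3, 12.8 and 99.5 CPM (difference 2.95, SE 0.16, adjusted p = 1.15e-72), and NR1D2 (REV-ERB beta) rose 2.44-fold. Of 19 ribosomal protein genes, 6 were called higher and 0 lower (median 0.23), but 2 higher when centred on the median and 3 when centred by GC bin. The share of higher calls was near the 29.1% over all expressed genes, of which 18% were called lower. Of 18 ribosome biogenesis factors, 7 were called lower and 1 higher, or 8 and 0 with either centring. NCL, nucleolin, fell from 698 to 531 CPM.

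The Huh7 difference was then compared with Hep3B, in which both drugs can be set against either single drug. The lines share no libraries. Because the Huh7 libraries labelled sorafenib had LXR targets above DMSO and ERK output genes near it, the Hep3B difference between both drugs and GW3965 alone was used first. The difference between the lines was tested in 11441 genes, of which 3519 (30.8%) were called, 2415 with the higher value in Huh7 and 1104 with the higher value in Hep3B. When centred on the median these counts were 1773 and 1576, so the size of the excess in Huh7 depended on the scaling. Of 5075 genes called in Huh7 and tested in Hep3B, 3392 were called in the same direction there and 336 in the opposite one. Of 11533 genes tested within Hep3B, 7363 were called.

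**Figure D4:**
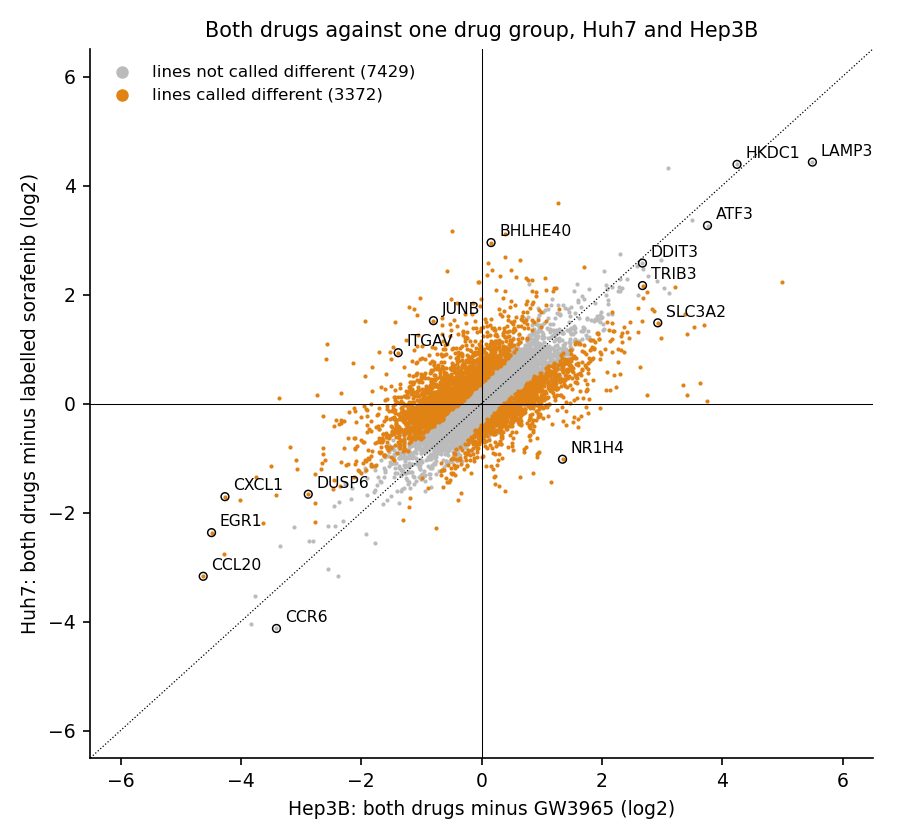
Each point is a gene expressed in both lines, with the Hep3B difference of both drugs minus GW3965 (log2) on the horizontal axis and the Huh7 difference of both drugs minus labelled sorafenib (log2) on the vertical axis. Orange points are the 3372 genes whose differences were called unequal between the lines, grey points the 7429 that were not, and the dotted line marks equal values. HKDC1, ATF3 and DDIT3 lie near the dotted line, while BHLHE40, JUNB and ITGAV lie above it and NR1H4 and SLC3A2 below.

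Stress regulators called different between the lines all had the lower value in Huh7, and ATF3 and DDIT3 were not called. ATF3 stood at 3.76 in Hep3B, so that Huh7 minus Hep3B was -0.49 (SE 0.36, adjusted p = 0.308), and DDIT3 at 2.68 (Huh7 minus Hep3B -0.10, SE 0.24, adjusted p = 0.798). HKDC1 stood at 4.25 in Hep3B (Huh7 minus Hep3B 0.14, SE 0.45, adjusted p = 0.849). In this comparison 0 of the 12 expressed stress regulators were higher in Huh7 while 4 were lower. Over all 11441 genes tested, 2415 were higher and 1104 lower in Huh7, or 1773 and 1576 when centred on the median. The list counts here are without centring. TRIB3 (2.68 in Hep3B), CHAC1 (2.60) and CEBPB (2.87) were among those lower in Huh7. ERK output genes had the higher value in Huh7 in 9 of 14 cases and the lower value in 0. DUSP6 stood at -2.88 in Hep3B (adjusted p of the difference between lines = 2.17e-05) and EGR1 at -4.49 (adjusted p = 2.26e-05). ER chaperones were lower in Huh7 for 14 of 19 genes, with a Hep3B median of 0.63. SDF2L1 was at 0.63 in Hep3B and -1.35 in Huh7, and HSPA5 at 0.97 and -0.18. The cholesterol genes had a median of -0.89 in Hep3B, and 20 of 24 were higher in Huh7. The metallothionein MT2A stood at 3.74 in Hep3B and 0.04 in Huh7 (adjusted p = 4.87e-11), MT1X at 3.64 and 0.37 and MT1E at 3.41 and 0.16. All 9 expressed chemokine and NF-kB genes had the higher value in Huh7, where CCL20 stood at -3.17 against -4.63 in Hep3B. DNA replication genes were mixed, with 6 of 24 higher and 7 lower in Huh7. BHLHE40 was at 0.16 in Hep3B (adjusted p = 4.93e-44), JUNB at -0.80 (adjusted p = 2.16e-23) and ITGAV at -1.38 (adjusted p = 3.20e-14), against 2.95, 1.52 and 0.93 in Huh7.

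Against the Hep3B group of the same label, sorafenib, 3064 of 11483 genes (26.7%) were called, 1867 with the higher value in Huh7 and 1197 with the higher value in Hep3B. When centred on the median these counts were 1593 and 1421. Of 5094 genes called in Huh7 and tested in Hep3B, 1446 were called in the same direction and 348 in the opposite one. Within Hep3B, 3624 of 11635 genes tested were called here, fewer than the 7363 of 11533 called against GW3965. The overlap counts of the Hep3B comparisons therefore have unlike backgrounds. DUSP6 and LYZ stood at -0.15 and 0.03 in that Hep3B comparison, and ABCG1 at 5.86 and SREBF1 at 2.18, against 0.55 and -0.82 in Huh7. The 2 Hep3B comparisons share the both-drug and the DMSO libraries and are not independent of each other.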

How the data were processed

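The study sequenced poly-A RNA of Huh7 and Hep3B cells. The 6 deposited tables, each of a drug group against DMSO of the same line, were used. Per the file headers, the authors give for each of 32321 RefSeq transcripts a log2 fold change, a mean log2 CPM, a p-value and an FDR from edgeR. Per the submitters' processing notes, the builds are hg19 and GRCh37. The aligner, the counting by strand and the edgeR version are not stated in those sources. The depth per library is unknown, so no counting interval was made.

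The transcript that the authors mark as representative stood for each of 20090 genes. The difference was the log2 fold change of both drugs minus that of labelled sorafenib, so the shared DMSO libraries cancel. Genes with a mean log2 CPM of at least 1 were kept. The standard error of each deposited log2 fold change was taken as its absolute value over the normal deviate that matches its p-value. The median of its expression bin, of 20, was used where p was above 0.5 and as the smallest error allowed. It was also used where p was listed as 0, which held for 12 rows of both drugs against DMSO. A two-sided normal p came from the difference over its combined error, with Benjamini-Hochberg adjustment over all 11458 genes. The DMSO error is counted in both terms although it cancels, which widens the error. Group levels in CPM were solved from the deposited log2 CPM and log2 fold changes. The DMSO level implied by both tables differed with an SD of 0.012 on the log2 scale. The differences between Huh7 and Hep3B were tested in the same way. The test was checked on simulated data. Python 3.11.15, numpy 2.4.6, pandas 2.3.3, scipy 1.17.1 and matplotlib 3.10.9 were used.

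Named genes were the 12 highest and 12 lowest among the called, up to 4 expressed members of each list with the largest absolute difference, and 12 genes named always. Other list members were chosen after their values were seen. The lists and the comparison were chosen with earlier results of these data known. Some genes are not reported here. Alternatives were another FDR, a minimum size, other expression limits, other treatments of the error, centring, all transcripts and, added after seeing the data, centring by GC bin. RefSeq promoters were matched by symbol, and GENCODE transcript GC content and length by RefSeq transcript.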

Additional observations from a re-analysis of the deposited data

Results flagged for a closer look

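The change from sorafenib to both drugs was compared between Huh7 and the Hep3B groups of the same labels for 30 of the 34 genes that were highest, lowest or always named, and ETS1, KLF4, GP2 and GBA3 were not tested. For 28 of them the difference between the lines was called at an adjusted p under 0.05 by the approximate test. Most of these genes were picked for an extreme Huh7 difference, which enters the comparison of the lines, so the number called is a description and nothing is read from it. Genes were higher in Huh7 in 12 cases and lower in 16, and in 7 the lines had opposite signs. Values are Huh7 minus Hep3B on the log2 scale. Among genes with the higher value in Huh7, EDN1 differed by 4.25, HKDC1 by 3.73, DNAH17 by 3.63, HDAC9 by 3.07, AKNA by 2.97 and LAMP3 by 2.95. The stress regulators DDIT3 (2.31), ATF3 (1.84), CHAC1 (1.42) and TRIB3 (1.42), the actin ACTA1 (2.13) and CD44 (2.03) followed. Among genes with the lower value in Huh7, the LXR targets ABCG1 (-5.31), SREBF1 (-2.995) and ABCA1 (-1.19) and the ERK output genes DUSP6 (-1.51), SPRY4 (-1.81) and EGR1 (-1.90) stood beside MKI67 (-1.06). CCL20 (-1.75), ARG1 (-1.90), LFNG (-1.99), ATP2B2 (-2.31) and NAT8 (-2.77) were lower too. The remaining ones were LYZ (-3.07), CGA (-3.29), CCR6 (-3.40) and SLC6A14 (-3.86). The Huh7 libraries labelled sorafenib went against that label on LXR and ERK genes, and the part of that in these differences was not tested.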

How the results depend on the processing

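No paired analysis was possible because the tables hold no values of single libraries, and for the same reason no replicate was left out. No named gene changed sign under any alternative run, but the balance of calls within some gene lists did change. Ferroptosis and iron genes went from 5 higher and 2 lower to 3 and 4 with centring by GC bin. Cholesterol genes went from 6 higher and 2 lower to 4 and 4 with centring on the median. The count of genes called in Huh7 lay between 4177 (FDR of 0.01) and 7306 (shared DMSO error removed), except in 2 settings. A minimum difference of 1 gave 900 genes, 596 higher and 304 lower, and taking every transcript gave 9359 transcripts, 5887 higher and 3472 lower, of 19899 tested. For Huh7 against Hep3B with sorafenib in each line, an FDR of 0.01 gave 1958 genes (1226 higher and 732 lower in Huh7), and removing the shared DMSO error gave 5339 (3140 and 2199). Against the Hep3B difference from GW3965, an FDR of 0.01 gave 2305 genes, 646 of them lower in Huh7, and removing the shared DMSO error gave 5758 (3739 and 2019). Centring on the median gave 1593 higher and 1421 lower in Huh7 in the comparison with sorafenib. In that with GW3965 it gave 1773 and 1576. At an FDR of 0.01 NR1I3, IRF9, RPS2, HAMP, CXCL1, AKR1B10 and RPL10 were no longer called. Centring on the median lost IRF9, RPS2, HAMP and RPL10, centring by GC bin lost IRF9, HAMP and RPL10, and the absence of an expression minimum lost IRF9 and HAMP. Of 170 named genes, 55 were no longer called at a minimum difference of 1. With a log2 CPM of at least 1 required in each table, 154 of the 170 were still tested, and each gave the same result. Errors are derived from p-values, not from libraries. Depth limits low genes most.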
